A study of Mus musculus with 8 samples.

Results

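Stefins are small inhibitors of cysteine proteases that carry no secretion signal and act mainly inside the cell. The 7 stefin genes described here were Stfa1, Stfa2, Stfa3, Stfa2l1, Csta3 and Cstdc6, all of the stefin A type, and Cstb, which encodes stefin B. They were taken by name from the 21885 genes of one expression table of mouse skin, after the difference between the 2 treatments was known. For that reason their difference between treatments is given as a description, with no test. The table held 4 further stefin A genes, Csta1, Csta2, Cstdc4 and Cstdc5, which are used for comparison.

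Both groups of skin had been treated with MC903 (calcipotriol), a vitamin D analogue that is painted on mouse skin to give an inflammation resembling atopic dermatitis. In 4 libraries MC903 was the only treatment, and in the other 4 it was combined with phytic acid, the phosphate store of plant seeds, so no library came from untreated skin. The labels give no strain, sex, age, dose, route or time, and they do not say whether libraries came from separate mice. The p-values below therefore measure only the spread between these libraries, which may be technical. The study's title names skin barrier function and a compound made by the skin microbiota as its subjects.

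Stefins belong to the cystatin superfamily and bind tightly and reversibly to papain-like proteases, among them the lysosomal cathepsins B, H, L and S. A wedge made of the protein's first residues and a pair of hairpin loops fills the active site of the protease, and the first of these loops carries the conserved motif glutamine, any residue, valine, any residue, glycine. Stefin B is made in most cells. Stefin A is abundant in the epidermis, where it is built into the cornified envelope of the dying keratinocyte, and the mouse carries a cluster of stefin A genes that are also known from neutrophils.

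All 10 stefin A genes lay in a stretch of 335 kb on chromosome 16 of build mm10, from position 36119946 to 36455392. Stfa2l1 (36156811 to 36161953), Csta3 (36210403 to 36217788) and Stfa1 (36276951 to 36285373) were on the plus strand. Cstdc6 (36321665 to 36334332), Stfa2 (36403992 to 36408457) and Stfa3 (36450537 to 36455392) were on the minus strand. Cstb was on chromosome 10, at 78425669 to 78427622 on the plus strand. All 7 are annotated as protein coding, with 3 exons in the transcript used here. Csta3 was found in the GENCODE M21 annotation as Gm5416, and Cstdc6 as BC117090.

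The stretch of coding sequence around the first binding loop shows how close the copies are, and why reads from some of them can be hard to tell apart. Each line gives 45 bases of the coding strand of the GENCODE M21 transcript, 5′ to 3′, with the 5 codons of the loop motif in capitals.
Stfa1: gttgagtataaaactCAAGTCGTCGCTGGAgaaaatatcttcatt
Cstdc6: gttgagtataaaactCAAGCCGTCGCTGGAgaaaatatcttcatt
Stfa2: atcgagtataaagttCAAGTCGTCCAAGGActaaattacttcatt
Stfa2l1: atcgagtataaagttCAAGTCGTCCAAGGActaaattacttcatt
Stfa3: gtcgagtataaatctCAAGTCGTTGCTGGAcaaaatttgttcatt
Csta3: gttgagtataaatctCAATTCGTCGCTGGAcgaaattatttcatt
Cstb: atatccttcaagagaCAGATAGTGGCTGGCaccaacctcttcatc
The windows of Stfa2 and Stfa2l1 were identical, and Cstdc5 had the same window as Cstdc6. Over the aligned coding sequence, the 45 pairs among the 10 stefin A genes were 77.7% to 97.9% identical. Stfa2 and Stfa2l1 were 96.4% identical, Stfa1 and Cstdc6 94.4%, and Stfa1 and its non-member neighbour Cstdc5 97.9%. Cstb stood apart, with 56.9% to 65.0% identity to the stefin A genes. Of the 50-base words in each transcript, 25.4% of those of Stfa1 also occurred in Cstdc5 or Cstdc6, 33.7% of those of Cstdc6 occurred in Cstdc5 or Stfa1, and 16.8% of those of Stfa2l1 occurred in Stfa2. Stfa3, Csta3 and Cstb shared no word of 50 bases with another stefin. No source used here states the read length or what was done with reads that map to several genes, so levels of Stfa1, Stfa2, Stfa2l1 and Cstdc6 are uncertain by the reads they may have exchanged.

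Levels are in FPKM, fragments scaled to gene length and to the mapped fragments of the library, which allows genes to be compared per annotated length. Whole reads could be recovered from these values for 97.4% of the genes with a value and an exon length. That length joins all annotated exons and can exceed the transcript used here, as for Cstdc4 (1862 against 414 bases) and Stfa1 (710 against 514). Ranks and comparisons between genes depend on it. The recovered totals were 31676934 to 37639476 reads in the MC903 libraries and 38310034 to 42997271 in the libraries with phytic acid, so every library with phytic acid was the deeper. The tissue carried its label: keratinocyte markers summed to 9208 to 12654 FPKM with MC903 alone and 9434 to 10891 FPKM with phytic acid. Hair follicle markers set MC903 replicate 3 apart, with a sum of 4220 FPKM against 438 to 590 FPKM in the other MC903 libraries and 19.8 to 26.9 FPKM with phytic acid. Markers of skeletal muscle summed to 3775 to 4486 FPKM with MC903 alone and to 8301 to 9634 FPKM with phytic acid, and those of fat cells to 222 to 526 FPKM and 572 to 1007 FPKM. The part of this difference in tissue makeup in the results below was not tested, and in whole skin fewer cells of a type and less RNA per cell cannot be told apart.

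Stefin A transcripts were among the most abundant in MC903-treated skin and were several-fold lower where phytic acid was added, while the levels of stefin B overlapped between the treatments. The mean level of all 7 genes was lower with phytic acid, and for 5 of the 6 stefin A members the highest library with phytic acid lay below the lowest with MC903 alone. Among all 12165 genes tested, the groups did not overlap for 27.3% (13.0% lower with phytic acid), and 25.8% were called by limma (11.6% lower). Since the members were chosen on this contrast, nothing is read from their count. All 7 members passed the filter on low values. The median difference of the 7 members was −3.02 on the log2(FPKM + 1) scale, against 0.05 over all genes tested. Differences below are group means with phytic acid minus MC903 alone on this scale, which understates the change of low genes, and their standard errors come from the 4 libraries of each group.

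**Figure D1:**
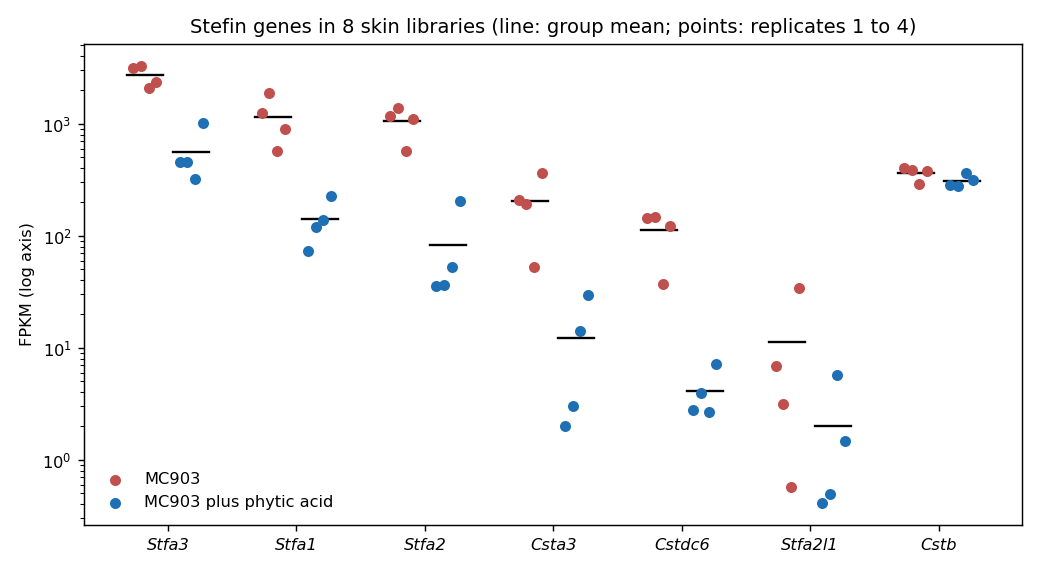
FPKM (log axis) of the 7 stefin genes in each of the 8 libraries, with MC903 alone in red, MC903 plus phytic acid in blue and a line at each group mean; points run from replicate 1 on the left to replicate 4 on the right. The groups are apart for Stfa3, Stfa1, Stfa2, Csta3 and Cstdc6 and overlap for Stfa2l1 and Cstb.

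Stfa3, the most abundant member, had 3118, 3284, 2097 and 2336 FPKM in MC903 replicates 1 to 4, and 452, 457, 322 and 1015 FPKM in the replicates with phytic acid. Its lowest MC903 library was above its highest library with phytic acid, and phytic acid replicate 4 stood above the other libraries of that group. The means were 2709 ± 581 and 561 ± 309 FPKM (SD, n = 4 each), a 4.82-fold lower mean, and the log2 difference was −2.38 ± 0.38 (SE). By mean level it ranked 6 of 21885 genes with MC903 alone and 63 with phytic acid.

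Stfa1 had 1258, 1867, 576 and 899.5 FPKM with MC903 alone and 73.0, 121, 137 and 228 FPKM with phytic acid. The groups did not overlap, although MC903 replicate 3 was far below replicate 2. Its means were 1150.2 ± 553 and 139.6 ± 64.8 FPKM (SD, n = 4 each), 8.24-fold lower with phytic acid, with a log2 difference of −3.02 ± 0.49 (SE). Its rank moved from 29 to 294.

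Stfa2 had 1179.6, 1385, 573 and 1108 FPKM with MC903 alone and 35.4, 36.5, 52.7 and 203 FPKM with phytic acid. Phytic acid replicate 4 was well above the other 3 libraries of its group, yet below every MC903 library. The means were 1061 ± 346 and 82.0 ± 81.2 FPKM (SD, n = 4 each), and the log2 difference was −4.02 ± 0.65 (SE). Stfa1 and Stfa2 had adjacent ranks with MC903 alone, 29 and 30, and lay at 294 and 513 with phytic acid.

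Csta3 and Cstdc6 were lower in level and had the largest log2 differences of the members. Csta3 had 209.7, 194, 52.3 and 360.3 FPKM with MC903 alone and 2.0, 3.02, 14.1 and 29.4 FPKM with phytic acid. MC903 replicate 3 and phytic acid replicate 4 came nearest to each other, and the other libraries were far apart. Its mean fell from 204 ± 126 to 12.1 ± 12.7 FPKM (SD, n = 4 each), with a log2 difference of −4.28 ± 0.98 (SE), and its rank from 215 to 3948.

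Cstdc6 had 144, 146, 36.7 and 123 FPKM with MC903 alone and 2.79, 3.91, 2.64 and 7.10 FPKM with phytic acid. These rested on 534 to 1812 reads in the MC903 libraries and on 44 to 112 reads in the others, and the groups did not overlap. The mean was 27.4-fold lower with phytic acid, 112 ± 51.6 against 4.11 ± 2.07 FPKM (SD, n = 4 each), with a log2 difference of −4.37 ± 0.54 (SE). Because 33.7% of its 50-base words are shared with Cstdc5 or Stfa1, both far more abundant, part of its reads may belong to them.

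Stfa2l1, the near-copy of Stfa2, was the least abundant member and did not follow Stfa2 from library to library. It had 6.93, 3.13, 0.571 and 34.3 FPKM with MC903 alone and 0.410, 0.498, 5.66 and 1.46 FPKM with phytic acid, from 92, 42, 9 and 538 reads and 7, 8, 102 and 25 reads. The groups overlapped: MC903 replicate 4 and phytic acid replicate 3 were the high libraries of their groups, and MC903 replicate 3 was among the lowest of all. The log2 difference was −1.43 ± 1.08 (SE, n = 4 each), and it became −0.62 without MC903 replicate 4 and −2.11 without MC903 replicate 3.

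Cstb, the single stefin B gene, had 402, 388, 288 and 381 FPKM with MC903 alone and 285, 277, 361 and 316 FPKM with phytic acid. The groups overlapped, since MC903 replicate 3 was lower than phytic acid replicates 3 and 4. The means were 365 ± 52.0 and 309.8 ± 38.2 FPKM (SD, n = 4 each), the log2 difference was −0.23 ± 0.14 (SE), and the rank was 107 with MC903 alone and 133 with phytic acid. Cstb was thus below Stfa3, Stfa1 and Stfa2 in every MC903 library, and above Stfa1 and Stfa2 in every library with phytic acid.

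The order of the stefin A members by mean level was Stfa3, Stfa1, Stfa2, Csta3, Cstdc6 and Stfa2l1 with MC903 alone. Stfa1 and Stfa2 differed there by less than their SDs, and Csta3 and Cstdc6 by less than the SD of Csta3. With phytic acid the order was the same, and there Stfa1 and Stfa2 again differed by less than the SD of Stfa2, Csta3 and Cstdc6 by less than the SD of Csta3, and Cstdc6 and Stfa2l1 by less than the SD of Stfa2l1.

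Because close copies may exchange reads, the 6 stefin A members were also added up. Reads exchanged with Cstdc5, which shares words of 50 bases with Stfa1 and Cstdc6, are not covered by this. The sum of the 6 members was 5917, 6879, 3335 and 4861 FPKM with MC903 alone and 565, 622, 534 and 1484 FPKM with phytic acid. The groups did not overlap, and phytic acid replicate 4 was again the high library of its group. The sum was 1.83%, 2.04%, 1.08% and 1.55% of all FPKM in the table with MC903 alone, and 0.18%, 0.21%, 0.16% and 0.45% with phytic acid. Its mean was 6.55-fold lower with phytic acid, 5248 ± 1519 against 801 ± 457 FPKM (SD, n = 4 each), a log2 difference of −2.80 ± 0.41 (SE).

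The makeup of this sum differed as well, with Stfa3 a larger and Stfa2 and Cstdc6 a smaller part of it with phytic acid. Stfa3 made up 52.7%, 47.7%, 62.9% and 48.05% of the sum in the MC903 libraries and 79.9%, 73.5%, 60.3% and 68.4% in those with phytic acid, so that its shares overlapped in 1 library of each group. Stfa2 made up 17.2% to 22.8% with MC903 alone and 5.88% to 13.7% with phytic acid. Cstdc6 made up 1.10% to 2.53% and 0.48% to 0.63%, also without overlap. Stfa1 held 17.3% to 27.1% and 12.9% to 25.6%, which overlapped. The shares of Stfa1 and Cstdc6 also depend on reads they may have exchanged with Cstdc5.

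**Figure D2:**
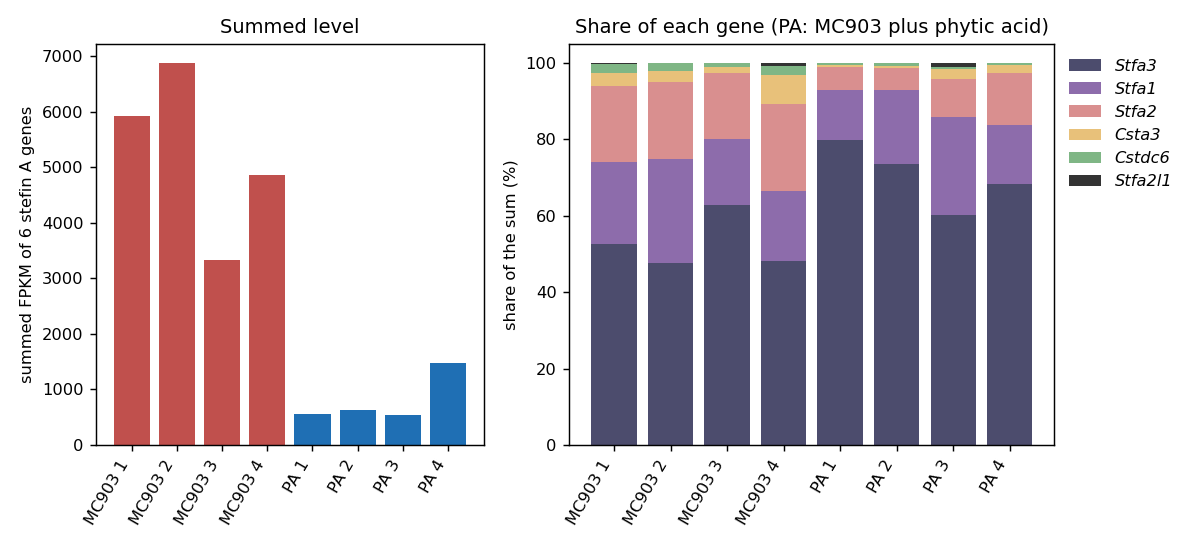
Left, summed FPKM of the 6 stefin A members in each library; right, the share of each member in that sum (%), for 4 libraries with MC903 alone and 4 with MC903 plus phytic acid (PA). The bars on the left run from 3335 to 6879 FPKM with MC903 alone and from 534 to 1484 FPKM with phytic acid, and Stfa3 is the largest share in every library.

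The 4 stefin A genes that are not members were tested on the same contrast, and Cstdc5 and Csta1 fell with phytic acid in limma's test with Benjamini-Hochberg adjustment over all genes. They are close relatives of the members and were listed with the members' result known, so their calls are not independent evidence. Cstdc5, the closest copy of Stfa1, had 2129, 2636, 1243 and 1719 FPKM with MC903 alone and 255, 282, 253 and 566 FPKM with phytic acid. Its log2 fold change was −2.54 ± 0.31 (SE, limma adjusted p = 0.000789), and it was lower in each of the 4 libraries with phytic acid than in any MC903 library. Cstdc5 was the second stefin A gene by level with MC903 alone, at rank 9, and at rank 120 with phytic acid.

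Csta1 had 736, 839, 234 and 707 FPKM with MC903 alone and 113, 129, 185 and 168 FPKM with phytic acid. These did not overlap, and MC903 replicate 3 and phytic acid replicate 3 came nearest to each other. The log2 fold change was −1.95 ± 0.37 (SE, limma adjusted p = 0.00577). Csta2 was low, with 2.08 to 15 FPKM with MC903 alone and 0.0384 to 0.692 FPKM with phytic acid, without overlap. It passed the filter on low values only through the MC903 libraries, so its call with the filter is not counted; fitted with no filter, its log2 fold change was −2.76 (limma adjusted p = 0.00953). Cstdc4 had 0.300 to 10.6 and 0.0280 to 1.30 FPKM, which overlapped, and did not pass the test (log2 fold change −1.47 ± 0.56, limma adjusted p = 0.0832); without MC903 replicate 3 it did (adjusted p = 0.00962). The sum of all 10 stefin A genes was 2.42% of table FPKM with MC903 alone and 0.41% with phytic acid, on average.

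Within each treatment, some stefins varied together from library to library and others did not. To look at this without using the difference between treatments, each library's log2(FPKM + 1) was set against the mean of its own group, and the deviations of gene pairs were correlated over the 8 libraries. These correlations are descriptions of 8 libraries that share normalization and, for some pairs, reads. Stfa3, Stfa1 and Stfa2 deviated together with Cstdc5, with r of 0.92, 0.90 and 0.92. Among the libraries with phytic acid their highest was replicate 4, and among the MC903 libraries their lowest was replicate 3.

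Stfa2l1 deviated instead with Cstdc4, with r = 0.98 (0.96 to 0.99 when each library was left out in turn), although the 2 genes are only 82.8% identical. With its near-copy Stfa2 the correlation was 0.31 (0.06 to 0.64), and with Stfa3 it was −0.12. Stfa2l1 was 0.0996% to 3.10% of the level of Stfa2 in the MC903 libraries and 0.720% to 10.7% in those with phytic acid, so its level was no fixed fraction of that of its copy. The other pairs of over 94% identity had r between 0.82 and 0.90: Stfa1 and Cstdc6 (0.82), Cstdc6 and Cstdc5 (0.86), Csta2 and Cstdc4 (0.88), and Stfa1 and Cstdc5 (0.90). Cstb deviated most closely with Csta1 among the stefins, with r = 0.92.

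**Figure D3:**
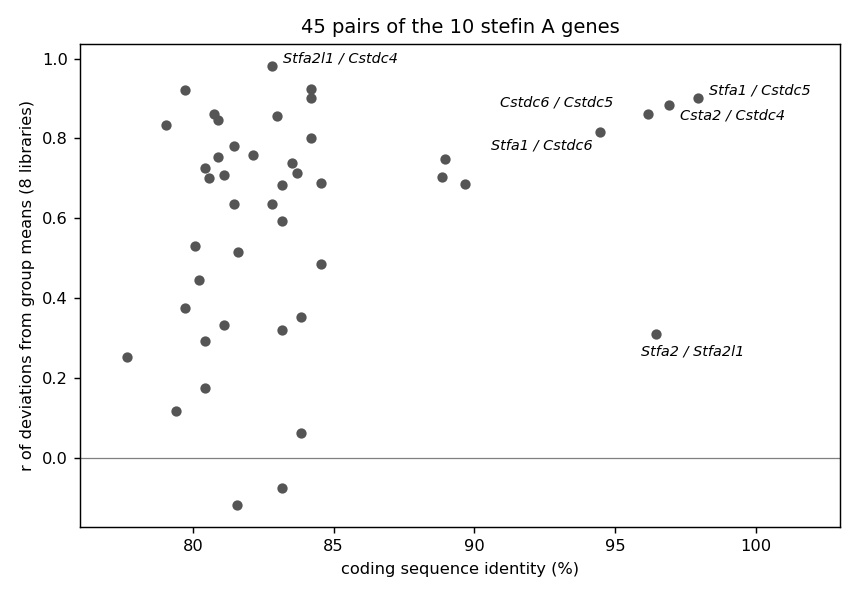
Each point is 1 of the 45 pairs of stefin A genes, placed by the identity of their coding sequences (%, x axis) and by the correlation of their deviations from the group means over 8 libraries (y axis). The pair Stfa2 and Stfa2l1 lies at 96.4% identity and r = 0.31, and the pair Stfa2l1 and Cstdc4 at 82.8% and 0.98.

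Neutrophil and wound-type keratinocyte markers were set beside the stefins, since both cell types are known to make stefin A. The 22 neutrophil genes summed to 283, 208, 144 and 1027 FPKM with MC903 alone and to 44.8, 29.5, 176 and 240.1 FPKM with phytic acid. Most of the mean sum, 415.4 and 122.6 FPKM, came from S100a9, S100a8 and Chil3. Their means were 167.96, 131.75 and 64.75 FPKM with MC903 alone and 42.25, 27.997 and 18.98 FPKM with phytic acid. The sum thus mainly follows these genes and is no measure of neutrophil number. MC903 replicate 4 and phytic acid replicates 3 and 4 were the high libraries of the sum, which are also the high libraries of Csta3. Only 10 of the 22 passed the filter on low values. While 11.6% of all genes tested were called lower and 14.2% higher, of these 10 genes 4 were called lower and none higher. They were Cxcr2, the receptor for neutrophil-attracting chemokines (limma adjusted p = 0.0222), the collagenase Mmp8 (0.0261), the iron-binding Lcn2 (0.0415) and S100a8 (0.0473), the last 2 also made by keratinocytes. Mmp8 passed the filter only through the MC903 libraries, and fitted with no filter it was not called (adjusted p = 0.0559), nor were Lcn2 (0.0821) and S100a8 (0.0918). These calls were not stable to leaving out a library: with limma, 1 neutrophil gene was called with MC903 replicate 1 left out and 2 with phytic acid replicate 4 left out. The count was 0 when replicate 2 or 4 of MC903 was dropped (5 and 3 genes had an unadjusted p under 0.05), and 0 when replicate 1 or 2 of the phytic acid group was dropped (4 and 5 genes). The defining granulocyte gene Ly6g was at 0 in 6 of the 8 libraries and reached 0.284 FPKM at most. Mpo, Elane, Camp, Ltf, Ngp, Cd177 and Itgb2l stayed below 0.876 FPKM in every library, and Prtn3 reached 1.33 FPKM. All of these but Ly6g were picked from the list after their values were seen, and the number of neutrophils was not tested.

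Over the 8 libraries, 8 of the 10 tested neutrophil genes had r above 0.5 with the deviations of Stfa2l1 (median r = 0.83), and 9 of the 10 did with those of Csta3 (median r = 0.78). For Stfa3 it was 0 of 10 (median r = 0.19), for Stfa1 2 of 10 (0.37) and for Cstdc6 3 of 10 (0.39). Stfa2 lay between, with 5 of 10 (0.50), and for Cstb it was 7 of 10 (0.58). The neutrophil genes not above 0.5 were Cxcr2 (0.43) and G0s2 (−0.30) with Stfa2l1, and G0s2 (−0.06) with Csta3. Among those above 0.5 with both were Lcn2 and S100a8, which keratinocytes also make. With the 18 wound-type keratinocyte genes that are not in the neutrophil list, r was above 0.5 for 12 with Csta3 (median 0.72), 9 with Stfa2l1 (0.51), 11 with Stfa1 (0.64), 11 with Cstdc6 (0.67), 11 with Cstb (0.58), 10 with Stfa2 (0.53) and 7 with Stfa3 (0.38). Csta3 thus varied with both lists and not with neutrophil genes alone, and Stfa3 had the lowest median r with each list. How many of all genes have r above 0.5 with each stefin was not counted. Genes of the neutrophil list also varied with one another, so these counts are not independent observations. The part of neutrophil or keratinocyte RNA in the level of any stefin was not tested.

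**Figure D4:**
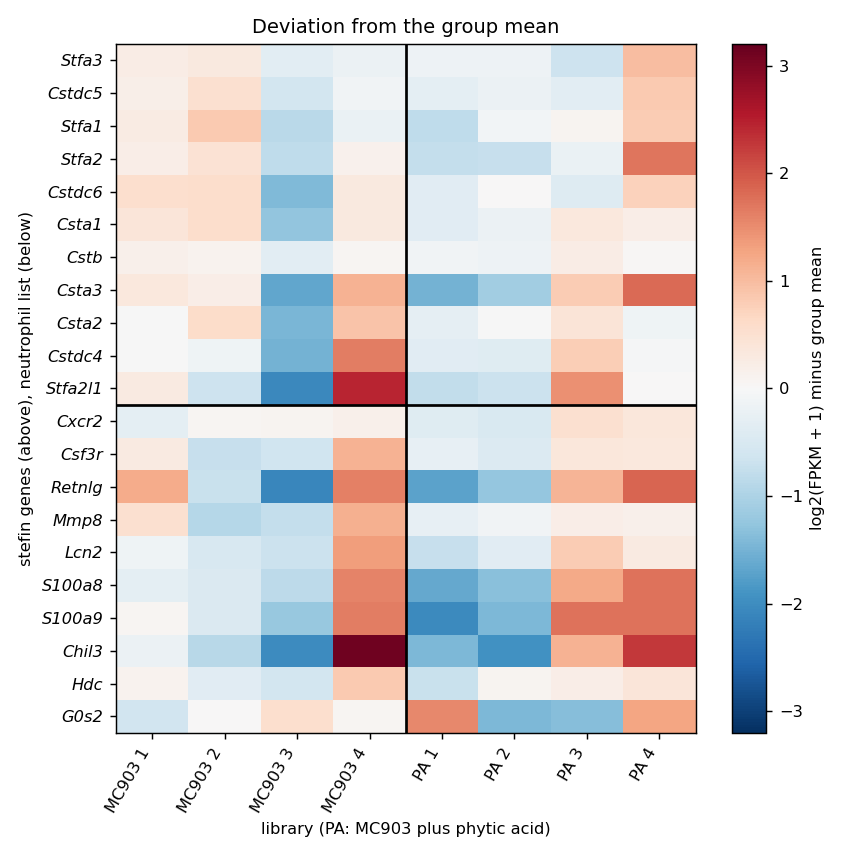
Deviation of log2(FPKM + 1) from the mean of the library's own group, for 11 stefin genes (above the line) and the 10 tested neutrophil genes (below it), in the 4 MC903 libraries and the 4 with phytic acid (PA). MC903 4 is the highest MC903 library for Stfa2l1, Cstdc4, Csta3 and 9 of the 10 neutrophil genes, and PA 4 is the highest PA library for Stfa3, Cstdc5, Stfa1 and Stfa2.

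Wound-type keratinocyte genes summed to 7710, 9249, 4970 and 10743 FPKM with MC903 alone and to 1424, 1429, 1626 and 2175 FPKM with phytic acid. Among all genes tested, 11.6% were called lower and 14.2% higher. Of the 20 tested from this list, 13 fell and 1, the growth factor gene Ereg, rose, with a median log2 fold change of −2.47. Among those that fell were the wound keratins Krt6a (−4.02 ± 0.41, limma adjusted p = 0.000409) and Krt16 (−3.99 ± 0.41, adjusted p = 0.000422), the growth factor gene Areg and the envelope gene Sprr2h. Like the stefin A sum, the sum of this list was lower in each library with phytic acid than in any MC903 library, and lowest of the MC903 libraries in replicate 3; its part in the stefin result was not tested. Of 14 tested keratinocyte markers, by contrast, 7 rose and 2 fell (median 0.68).

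The genes whose within-group deviations were most like the mean of the 6 stefin A members, among 7529 genes with a mean of at least 5 FPKM, were Sprr2e (r = 0.98), Plac8 (0.98), Ccl6 (0.97), Arg1 (0.97) and Akr1a1 (0.96). As the highest of 7529 correlations over only 8 libraries, such values can arise by selection alone. The mean also weighs all 6 members alike, so the rare Stfa2l1 with its wide deviations counts as much as Stfa3. These 5 genes differed in how they stood between treatments. Sprr2e, a cornified envelope precursor, and Arg1, which cleaves arginine, fell (log2 fold change −2.69 ± 0.57, limma adjusted p = 0.00895, and −2.88 ± 0.41, adjusted p = 0.0016). Plac8 (0.56 ± 0.31), the chemokine gene Ccl6 (0.12 ± 0.39) and the aldehyde reductase gene Akr1a1 (−0.12 ± 0.11) did not pass the test. For Cstb the 3 most alike were Tmed2, Srxn1 and Llph, each at r = 0.98 and again the highest of 7529.

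Of the classical stefin targets, cathepsins B, H, L and S, the genes Ctsl and Ctsh fell with phytic acid, and Ctsb and Ctss did not pass the test. The wider list of cysteine proteases and their relatives also holds genes that stefins are not known to bind. Of its 14 genes tested, 5 fell and 2 rose with phytic acid, and the median log2 fold change was −0.14. Over all genes tested, 11.6% were called lower and 14.2% higher. Ctsl, the cathepsin known for its part in hair and epidermal renewal, fell from 310.2 ± 90.1 to 146 ± 31.2 FPKM (SD, n = 4 each; −1.05 ± 0.25, limma adjusted p = 0.0146), although its groups overlapped. Ctsk, the collagen-cleaving cathepsin, fell by 0.88 ± 0.18 (adjusted p = 0.00893), and Ctsh, an aminopeptidase, by 0.80 ± 0.25 (adjusted p = 0.0412, and the call was lost without any 1 of MC903 replicates 1, 2 and 4 or phytic acid replicates 1, 2 and 3, with adjusted p up to 0.112). Blmh, a cytosolic aminopeptidase that takes part in the breakdown of filaggrin, fell from 171 ± 33.5 to 72.5 ± 4.95 FPKM (−1.20 ± 0.15, adjusted p = 0.0008). Tinagl1, which is related to the cathepsins but lacks their catalytic cysteine, fell by 1.80 ± 0.30 (adjusted p = 0.00286).

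Ctso rose by 0.55 ± 0.10 (limma adjusted p = 0.00392) and Ctsw, the cathepsin of cytotoxic lymphocytes, by 1.13 ± 0.27 (adjusted p = 0.0145), from 0.897 to 3.37 FPKM. Ctsb (185 ± 24.9 against 155 ± 22.1 FPKM, adjusted p = 0.201) and Ctss (188 ± 47.2 against 254 ± 70.6 FPKM, adjusted p = 0.204) did not pass the test. The same held for Ctsc (adjusted p = 0.616) and for the asparaginyl protease Lgmn (adjusted p = 0.275), a target of cystatins rather than of stefins. The stefin A sum was 3.51, 4.70, 3.36 and 2.92 times the summed FPKM of the cysteine protease genes with MC903 alone, and 0.64, 0.66, 0.52 and 1.22 times with phytic acid. The comparison depends on which stefins are added up. All 10 stefin A genes summed to 934, 1033, 974 and 2218 FPKM with phytic acid, and the proteases to 888, 946, 1019 and 1219 FPKM, so the 6 members were above the proteases in 1 of these 4 libraries and all 10 genes in 3. With MC903 alone both sums were above the proteases in every library. These are ratios of transcripts per length and not of proteins.

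**Figure D5:**
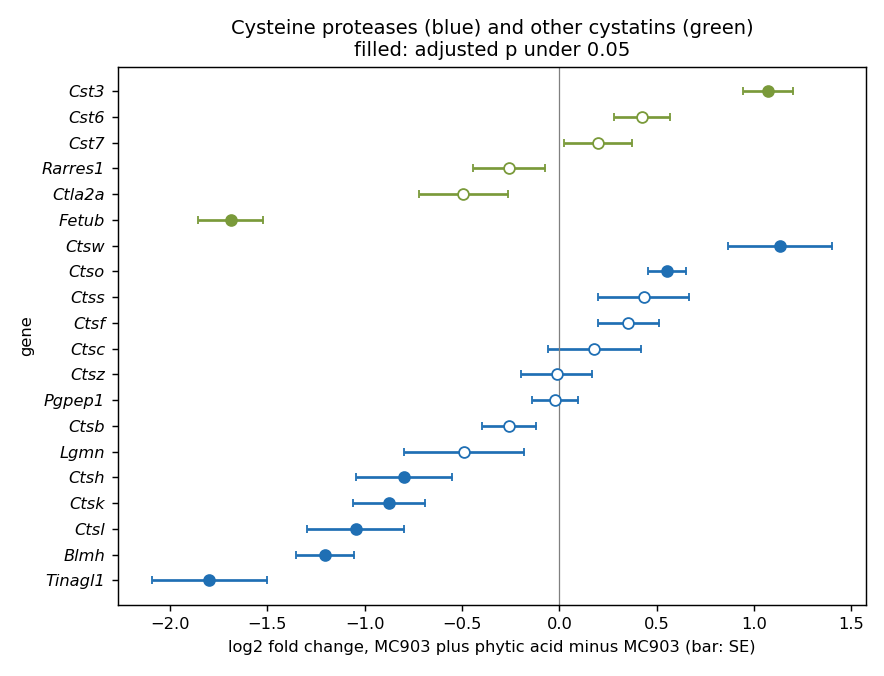
Log2 fold change (MC903 plus phytic acid minus MC903, bars: SE of limma) of the 14 tested cysteine protease genes (blue) and the 6 tested cystatins other than stefins (green); filled points have an adjusted p under 0.05. Cst3 lies at 1.07 and Fetub at −1.69, and the proteases run from −1.80 for Tinagl1 to 1.13 for Ctsw.

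Of 6 cystatin genes other than stefins that were tested, 1 rose and 1 fell. This is near the shares over all genes tested, of which 14.2% were called higher and 11.6% lower. Cst3, which encodes cystatin C, the main cystatin of body fluids, rose from 198 ± 23.3 to 417 ± 41.7 FPKM (SD, n = 4 each; 1.07 ± 0.13, limma adjusted p = 0.000763). Fetub, a fetuin that inhibits metalloproteases of the astacin type, fell from 5.97 to 1.13 FPKM (−1.69 ± 0.17, adjusted p = 0.000367). Cst6, cystatin E/M, the epidermal inhibitor of legumain and cathepsin L, had 179 ± 14.4 and 244 ± 45.9 FPKM and just missed the threshold (0.42 ± 0.14, adjusted p = 0.0576). It passed with quantile normalization (adjusted p = 0.0128), with scaling to TPM (adjusted p = 0.0311), with a variance model without trend (0.0498) and without phytic acid replicate 2 (0.0392). Of the 9 tested genes of envelope cross-linking, in which stefin A is a substrate, the transglutaminases Tgm3 (−1.87 ± 0.17), Tgm1 (−0.80 ± 0.11) and Tgm5 (−0.45 ± 0.11) fell (adjusted p = 0.000278, 0.00133 and 0.0142), and the lipoxygenase Aloxe3 rose (0.58 ± 0.16, adjusted p = 0.0253). Aloxe3 lost its call when replicate 1 or 4 of MC903, or replicate 1 or 2 of the phytic acid group, was dropped (adjusted p up to 0.0714).

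Of the other genes around the cluster, 14 within 500 kb on either side were tested; 3 rose (Cd86, Wdr5b and Iqcb1) and 2 fell (Fam162a and Ccdc58). These shares are near those over all genes, of which 14.2% were called higher and 11.6% lower. The median log2 fold change of these 14 genes was 0.37, against 0.05 over all genes tested, and they ran from −1.44 for Fam162a to 0.86 for Cd86. Fam162a and Cd86 kept their call without each library in turn, and Wdr5b lost it without MC903 replicate 1 (limma adjusted p = 0.0535). Ccdc58 lost its call without several libraries (adjusted p up to 0.103). Iqcb1 lost its call whichever library was left out (adjusted p 0.0511 to 0.13).

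The sequence before the start site was available for 5 of the 7 members, from the RefSeq promoter table of build GRCm38.p6, and not for Cstdc6 or Cstb. The 100 bases before the annotated start are shown for the most and the least abundant member, whose promoters are 82.9% identical over the bases aligned. Capitals mark matches to TTTAAAA, chosen after the sequences were seen, and, on the reverse strand, to the C/EBP core motif TTNNGNAA.
Stfa3, chr16:36455393-36455492, minus strand: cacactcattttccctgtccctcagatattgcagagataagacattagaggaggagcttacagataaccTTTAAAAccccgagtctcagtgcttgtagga
Stfa2l1, chr16:36156711-36156810, plus strand: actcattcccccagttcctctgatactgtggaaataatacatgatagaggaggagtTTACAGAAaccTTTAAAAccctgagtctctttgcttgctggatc
TTTAAAA was found in all 5 promoters (250 bases before to 50 after the start, both strands searched), at positions −30 in Stfa1, −29 in Stfa2, −31 in Stfa3, −33 in Stfa2l1 and −77 in Csta3, and in 8.74% of the 32851 promoters of the table. The annotated Csta3 transcript has 294 bases, 291 of them coding without the stop codon, so it begins at the start codon. Its position is therefore not comparable with those of the other members. TTNNGNAA was in 4 of the 5, all but Stfa3, and in 40.7% of all promoters. The AP-1 motif TGANTCA was in Stfa3 alone of the 5, at position 29 after the annotated start and not before it, and in 7.81% of all. The STAT motif TTCNNNGAA was in none of the 5, and in 8.30% of all. The promoters of Stfa2 and Stfa2l1 were 92.3% identical over the bases aligned, although their mean levels with MC903 alone were 1061 and 11.2 FPKM. These matches are descriptions of letters, not of bound sites.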

How the data were processed

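RNA of 8 mouse skin libraries was measured, 4 with phytic acid beside MC903 and 4 without. TRIzol and a SMARTER mRNA-seq kit were used, per the labels' protocols. Named without roles in the submitters' processing notes are build mm10 and the tools DESeq, HISAT2, TopHat2 and cutadapt. The authors deposited FPKM per gene. Left out were 51 unnamed rows (0.0160% to 0.0238% of a library's FPKM); of 21 repeated names the row with the highest mean was kept.

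Log2(FPKM + 1) of genes with at least 1 FPKM in at least 4 libraries (12165) was fitted with limma 3.58.1 (R 4.3.3, group only, trend), two-sided, with Benjamini-Hochberg adjustment over all of them and a call under 0.05. The script was tested on simulated data. Whole reads were recovered from FPKM and GENCODE M21 exon lengths (17514 of 17985 genes whole within 0.05 in every library). Other settings were another pseudocount, filter, scaling or variance model, a replicate block, voom on the recovered reads (chosen after seeing the data), and leaving out each library.

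The members and gene lists were chosen with earlier results of these data known. Named genes were the members, other stefin A genes, up to 4 called genes of smallest p per related list, set proteases and cystatins, and the most alike genes within groups. Ctss, Ctsh, Ctsw, Ereg, Elane, Camp, Ltf, Mpo, Ngp, Cd177, Itgb2l, Prtn3 and the genes around the cluster were added after their values were seen, as were the correlations of single members.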

Additional observations from a re-analysis of the deposited data

Results flagged for a closer look

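The values of 3 quantities stood apart from the other libraries of their group by Dixon's criterion for 4 samples. Chance meets this criterion in about 1 of 20 groups. Every stefin gene and the sum were screened in both groups, so some such values are expected by chance. The 3 flagged values were all high in phytic acid replicate 4. Stfa2 had 203 FPKM there against 52.7 in the next library (gap over range 0.897), Cstdc5 had 566 against 282 (0.908), and the sum of the 6 stefin A members had 1484 against 622 (0.908). They are not independent, since Stfa2 is part of the sum and Cstdc5 shares sequence with Stfa1. Without this library the log2 difference of Stfa2 was −4.59 and that of the sum −3.14.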

How the results depend on the processing

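No stefin member reversed with another pseudocount or scaling, or with any 1 library left out. Over all settings that left out 1 library, the median of the members' log2 differences ran from −3.31 to −2.74 and the log2 difference of the stefin A sum from −3.14 to −2.65.

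The number of genes called with limma was 3134 (1722 higher, 1412 lower). Median-of-ratios scaling gave 1469 higher and 1834 lower, and array quality weights called 4796 (2865 higher, 1931 lower). Leaving out each library gave 1952 (without MC903 replicate 1) to 3891 (without MC903 replicate 3). Among the other cystatins 2 were called, and 1 where a mean of at least 5 FPKM was asked, since Fetub then drops out; leaving out libraries gave 2 to 3. The 4 neutrophil calls became 1 without a filter, 7 with array quality weights and 0 to 5 when a library was left out. Ccl6, never called, turned from 0.12 to −0.11 with array quality weights, and ran from −0.27 (MC903 replicate 3 left out) to 0.34 (phytic acid replicate 1 left out) over the libraries, with −0.10 when phytic acid replicate 4 was left out; the cause was not tested.

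Replicate numbers were shared by the groups, but the labels do not say that they pair the libraries. In their deviations from the group means, same-numbered libraries correlated at −0.28, −0.10, −0.29 and 0.23. Only replicate 4 correlated best with its own number. These few correlations cannot exclude a pairing. With the replicate number as a block, the number of genes called was 2046.

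The rarest stefins rest on few reads (7 to 538 for Stfa2l1), which limits how finely their levels can be compared.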
